A study of Mus musculus with 58 samples.

Results

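The autophagy core genes are 10 genes chosen by name and not by a measured threshold, out of the 31246 genes listed for each of 2 cortical regions. They were *Ulk1*, *Becn1*, *Atg5*, *Atg7*, *Atg12*, *Map1lc3a*, *Map1lc3b*, *Gabarap*, *Gabarapl1* and *Sqstm1*, and all 10 were found in both regions. Tissue of the entorhinal cortex (EC) and of primary visual cortex (PVC) was taken for RNA-sequencing from male C57Bl/6 *APOE* targeted replacement mice aged 14 to 15 months. In these mice human *APOE* stands in place of mouse *Apoe*, under the mouse promoter, so mice of both genotypes carry the human gene. Each region had 29 libraries, 10 from *APOE3/3* and 19 from *APOE3/4* mice, which makes 58 in all, and each of the 29 animal numbers occurs in both regions. The EC had been chosen as a region vulnerable to Alzheimer's disease and the PVC as a resistant one. The paper states that its mice, those used for microscopy included, came from 2 colonies. Whether the sequenced mice came from both is not stated.

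The value analysed is the authors' mean normalized count, for which each library's counts were divided by its size factor and then averaged over the 29 libraries of the region. It pools both genotypes, so it gives a level per region and no level per mouse. No spread between mice, standard error or test could therefore be attached to any level, and the depth of single libraries was not analysed here. The other columns of the tables hold the authors' own comparison of *APOE3/4* with *APOE3/3* and were not used, so the genotypes are not compared below. The 2 tables were normalized separately. Summed over all genes, the mean normalized count came to 49385488 for EC and 27058393 for PVC tissue, and the median EC over PVC ratio was 1.83 over the 12097 genes with a mean of at least 100 in both regions. A ratio between regions is given below relative to this median, so that a relative ratio of 1 is that of the typical gene.

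Autophagy carries cytoplasmic material to the lysosome inside a double-membraned vesicle, the autophagosome. A kinase complex built around ULK1 starts the process, a lipid kinase complex that holds Beclin 1 marks the site, and a pair of ubiquitin-like conjugation reactions attaches proteins of the ATG8 family, which are the LC3 and GABARAP proteins, to the lipid of the growing membrane. Receptors such as the product of *Sqstm1* bind both ubiquitylated cargo and the ATG8 proteins. Neurons do not divide and cannot dilute damaged proteins, and loss of *Atg5* or *Atg7* in the mouse nervous system is known to cause protein inclusions and neurodegeneration.

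The ATG8 proteins are made as precursors, which an ATG4 protease trims behind a glycine near the end so that this glycine can be joined to lipid. The 3′ ends of the coding sequences of the 4 ATG8 genes among the members, and of the fifth gene *Gabarapl2*, are shown because the levels of these paralogs are compared below and reads are assigned to them by sequence. They were taken from the GENCODE M1 transcripts of the NCBIM37 build and run 5′ to 3′ on the coding strand to the stop codon. Capitals mark the codon of that glycine, located as the glycine codon nearest to the end that follows a phenylalanine or tyrosine codon.
Map1lc3a: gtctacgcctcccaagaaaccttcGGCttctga
Map1lc3b: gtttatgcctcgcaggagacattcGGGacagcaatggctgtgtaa
Gabarap: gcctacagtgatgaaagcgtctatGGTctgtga
Gabarapl1: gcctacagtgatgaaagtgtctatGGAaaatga
Gabarapl2: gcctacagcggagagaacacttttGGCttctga

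The glycine codon was codon 120 in both LC3 genes and codon 116 in the 3 GABARAP genes. *Map1lc3b* had 5 codons between it and the stop codon, and each of the other 4 genes had 1. The coding sequences of *Map1lc3a* and *Map1lc3b* were identical at 76.0% of 366 aligned bases, and those of *Gabarap* and *Gabarapl1* at 74.9% of 354. Between an LC3 gene and a GABARAP gene the identity lay between 51.4% and 59.5%. The longest exact run that any pair of the 5 genes shared anywhere in their annotated transcripts was 17 bases, between *Gabarap* and *Gabarapl1*, which is far below the length of a read. Reads within these transcripts could thus be told apart between the 5 genes, although processed pseudogenes of them were not examined.

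All 10 members were expressed in both regions, and their levels lay above the median of all genes. To compare genes with each other, the mean normalized count was divided by the length of all annotated exons of the gene, overlaps counted once, and is then called the level per kb. The member with the lowest level per kb, *Atg5*, stood at the 70.8th percentile of the 22608 genes with a length and a value above 0 in the EC and at the 70.3rd percentile of the 22168 such genes in the PVC. The median level of all such genes was 95.2 per kb in EC and 54.2 in PVC tissue, and the median of the 10 members was 1853 and 961. Between the highest and the lowest member the level differed 35.5-fold in the EC and 38.5-fold in the PVC. The ATG8 genes and *Sqstm1* were the 5 highest members in both regions and lay above the 95th percentile, while the genes of initiation, nucleation and conjugation made up the lower 5.

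**Figure D1:**
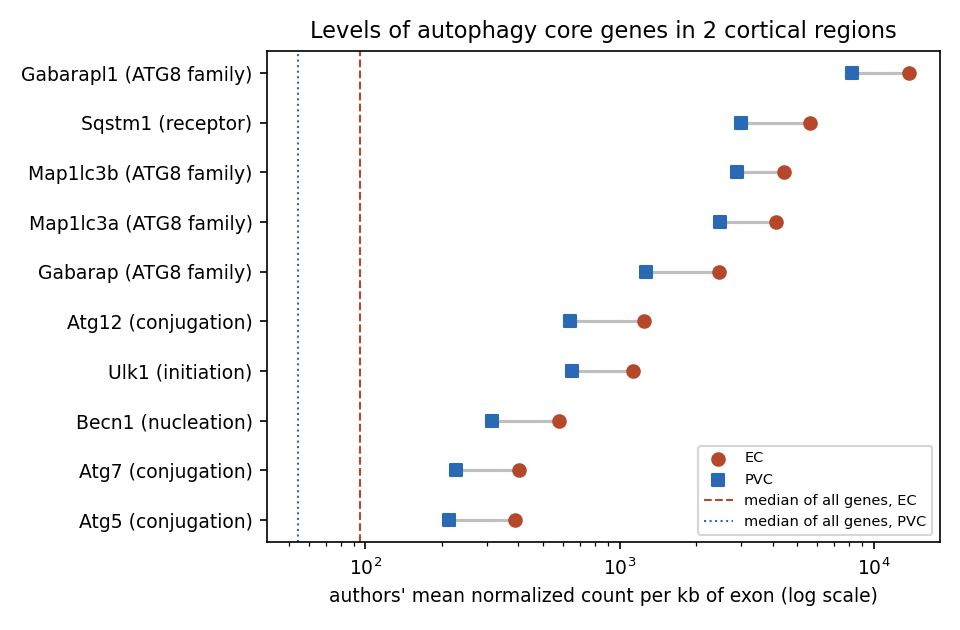
Level per kb of exon (authors' mean normalized count per kb, log axis) of the 10 autophagy core genes in the EC (circles) and the PVC (squares), ordered by the EC level, with the median of all genes as a dashed line for the EC and a dotted line for the PVC; each point is a mean over 29 libraries and has no error bar because no values of single mice were used. *Gabarapl1* lies highest and *Atg5* lowest in both regions. The tables were normalized separately and have a median EC over PVC ratio of 1.83, so the offset between circles and squares is not read as a regional difference.

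*Gabarapl1*, which encodes a GABARAP-like member of the ATG8 family, had the highest level of the members. Its mean normalized count was 24343 in the EC against 14488 in the PVC. This gave 13792 per kb in the EC against 8209 in the PVC, at the 99.7th percentile of genes in each. *Gabarapl1* lies on the plus strand of chromosome 6 of NCBIM37 from 129483218 to 129492349, with 1 annotated transcript in 4 exons. Its level per kb was 5.61 times that of *Gabarap* in the EC and 6.47 times in the PVC.

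The LC3 genes, whose lipid-bound products are the usual marker of autophagosomes, were close to each other in level per kb of exon. *Map1lc3b* had a mean normalized count of 7619 in the EC against 4971 in the PVC, or 4451 and 2904 per kb. *Map1lc3a* had 4870 in the EC and 2922 in the PVC, or 4124 and 2474 per kb. *Map1lc3b* was thus above *Map1lc3a* by a ratio per kb of 1.08 in the EC against 1.17 in the PVC. The size of this ratio depends on the length used. The exon lengths of *Map1lc3b* and *Map1lc3a* are 1712 and 1181 bases, while their coding lengths, 375 and 363, are nearly equal and would set the 2 genes further apart. Whether these neighbours in the order differ beyond the spread between mice cannot be said from means. *Map1lc3a* lies on chromosome 2 from 155102033 to 155103809 and *Map1lc3b* on chromosome 8 from 124114368 to 124121947, both on the plus strand of NCBIM37.

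*Gabarap*, first known as a partner of the GABA-A receptor, was the lowest of the ATG8 genes among the members. It had a mean normalized count of 4532 in the EC against 2340 in the PVC, or 2457 and 1269 per kb. It stood at the 95.6th percentile in the EC and the 95.1th in the PVC. *Gabarapl2*, the fifth ATG8 gene, had 2285 per kb in the EC and 1314 in the PVC, so that *Gabarap* was above it in the EC and below it in the PVC. This order depends on the exon lengths. The coding sequences of both genes have 354 bases, and the mean normalized count of *Gabarapl2*, 5314 in the EC and 3056 in the PVC, was above that of *Gabarap* in both regions. Of the summed level per kb of the 5 ATG8 genes, *Gabarapl1* made up 50.9% in the EC and 50.8% in the PVC. *Map1lc3a* made up 15.2% and 15.3%, *Map1lc3b* 16.4% and 18.0%, and *Gabarap* 9.06% and 7.85%. The 4 members of the family held 72.6% of the summed level of the 10 members in the EC and 74.6% in the PVC.

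**Figure D2:**
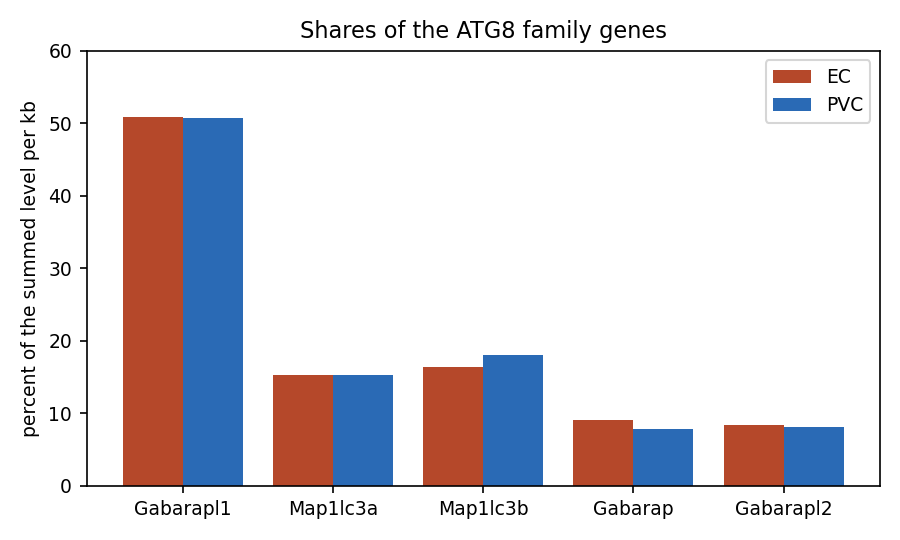
Share of each of the 5 ATG8 family genes in their summed level per kb of exon (percent, axis from 0), in the EC and the PVC; bars are shares of the authors' means over 29 libraries and carry no error. *Gabarapl1* holds 50.9% in the EC and 50.8% in the PVC, and *Map1lc3b* holds 16.4% and 18.0%.

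*Sqstm1*, the cargo receptor that is itself degraded by autophagy, was the second highest member by level per kb in both regions. Its mean normalized count was 18771 in the EC against 10093 in the PVC, or 5593 and 3007 per kb. Its level per kb was 4.10 times that of *Nbr1*, a receptor of related build, in the EC and 3.94 times in the PVC. The gene lies on the minus strand of chromosome 11 of NCBIM37 from 50012868 to 50024329. Of its 3356 exon bases, 580 are also exon bases of *3010026O09Rik* on the opposite strand, and the sources used here do not say whether strand was used in counting, so reads from that overlap cannot be told apart.

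The genes of the conjugation machinery were lower and unequal. *Atg12* encodes a ubiquitin-like protein that is joined to the product of *Atg5*, and *Atg7* encodes the activating enzyme that both conjugation reactions need. *Atg12* had a mean normalized count of 3112 in the EC against 1597 in the PVC, or 1249 and 641 per kb. *Atg5* had 918 and 503, or 388 and 213 per kb, and *Atg7* had 1469 and 828, or 402 and 227 per kb. *Atg12* was thus 3.22 times the level of *Atg5* in the EC and 3.01 times in the PVC. *Atg16l1*, whose product binds that conjugate, had a level per kb 1.01 times that of *Atg5* in the EC and 1.103 times in the PVC. These ratios, and those of *Atg7* that follow, depend on the lengths used. The mean normalized count of *Atg16l1*, 3787 in the EC and 2267 in the PVC, was well above that of *Atg5*. The coding lengths of *Atg12* and *Atg5*, 423 and 825, would set those genes further apart. The ratio of *Atg7* to *Atg3*, the conjugating enzyme for the ATG8 proteins, was 0.780 and 0.754, and that of *Atg7* to *Atg10*, the conjugating enzyme for ATG12, was 1.69 and 1.76. *Atg5* lies on chromosome 10 from 43988164 to 44084097 and *Atg7* on chromosome 6 from 114593149 to 114810431, both on the plus strand, and *Atg12* on the minus strand of chromosome 18 from 46892071 to 46901233 of NCBIM37.

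*Ulk1*, the kinase that starts autophagy and is held in check by mTORC1, had a mean normalized count of 5909 in the EC against 3403 in the PVC, or 1134 and 653 per kb. It was nearly level with its paralog *Ulk2*, at a ratio per kb of 0.988 in the EC against 1.023 in the PVC. Against its partner *Atg13* in the kinase complex, *Ulk1* had 1.05 times the level per kb in the EC and 0.954 times in the PVC. Against *Rb1cc1*, the scaffold of the complex, it had 2.92 and 2.77 times the level per kb. The ratio to *Rb1cc1* reflects the exon lengths. The mean normalized count of *Rb1cc1*, 5706 in the EC and 3468 in the PVC, was close to that of *Ulk1*. *Becn1* encodes Beclin 1, a subunit of the lipid kinase complex. It had a mean normalized count of 4097 in the EC against 2227 in the PVC, or 580 and 315 per kb. Its ratio per kb to *Pik3c3*, the kinase of that complex, was 0.9999 in the EC against 0.986 in the PVC. That ratio also depends on the exon lengths, as *Pik3c3* had a lower mean normalized count, 2590 in the EC and 1428 in the PVC. *Ulk1* lies on the minus strand of chromosome 5 from 111213507 to 111239116 and *Becn1* on the minus strand of chromosome 11 from 101147266 to 101163600. The level per kb of *Becn1* is less certain than those of the other members. Its 17 annotated transcripts span 7065 exon bases against 4365 in the longest of them, and 43.9% of its exon bases overlap exons of *Cntd1* on the opposite strand. *Gabarap* and *Sqstm1* also have exon lengths above that of their longest transcript, 1844 against 1351 bases and 3356 against 2673.

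The order of the members was nearly the same in both regions. *Gabarapl1*, *Sqstm1*, *Map1lc3b*, *Map1lc3a* and *Gabarap* followed each other in both, and *Becn1*, *Atg7* and *Atg5* closed both orders. Between them, *Atg12* stood before *Ulk1* in the EC and behind it in the PVC. With the coding length in place of the exon length, 3 of the 45 pairs of members changed places in the EC and 5 in the PVC. *Map1lc3b* and *Sqstm1*, *Becn1* and *Ulk1*, and *Atg5* and *Atg7* did so in both regions. In the PVC alone, *Map1lc3a* moved before *Sqstm1*, and *Atg12* before *Ulk1*, so that *Atg12* then stood before *Ulk1* in both regions. All these pairs thus have no firm order.

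The question of whether the machinery differed in level between the vulnerable and the resistant region was addressed with the relative ratio. A gene was counted as different where its relative ratio was at least 1.2-fold in either direction, a limit on size and not a test. None of the 10 members passed it in either direction. Of all 12097 genes with a mean of at least 100 in both regions, 25.3% passed it, 13.1% being higher in the EC and 12.2% higher in the PVC. The median relative EC over PVC ratio of the members was 0.980, which is -0.03 on the log2 scale, beside 1 for all genes by construction. It was above 1 for 4 members and below 1 for 6, a split that turned with the scaling, to 5 and 5 with the median ratio of genes of at least 1000, to 3 and 7 with that of genes of at least 10 and to 2 and 8 with that of all genes above 0. All these ratios set side by side tables that were normalized separately, and in bulk tissue fewer cells of a type and less RNA per cell cannot be told apart.

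**Figure D3:**
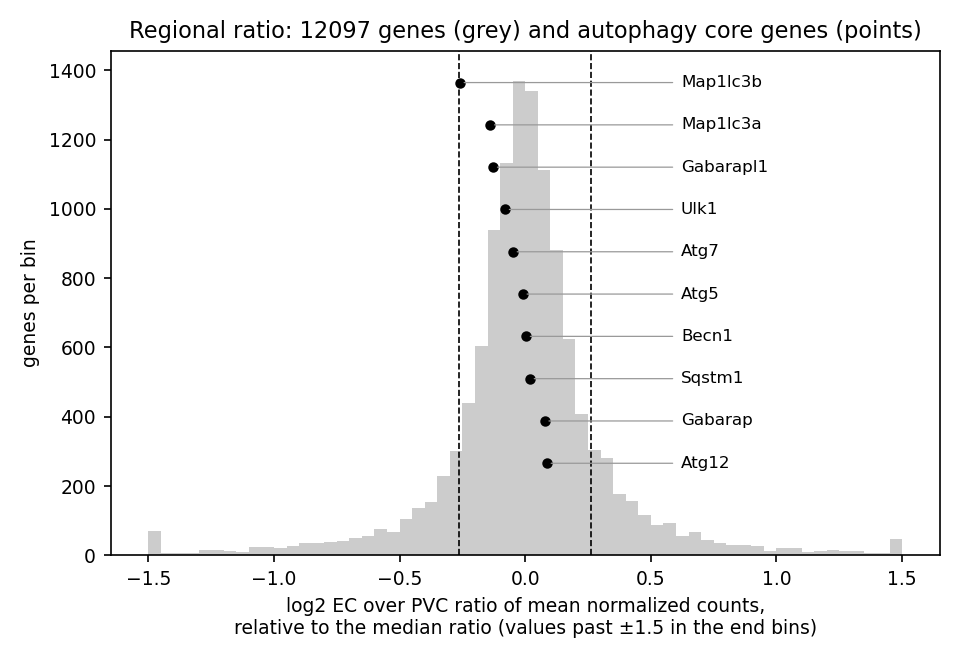
Histogram (grey) of the log2 EC over PVC ratio of the authors' mean normalized counts, relative to the median ratio, for 12097 genes with a mean of at least 100 in both regions, with the 10 autophagy core genes as points at heights chosen for legibility and dashed lines at 1.2-fold in either direction. All 10 points lie between the lines, with *Map1lc3b* at -0.26 just inside the left one and *Atg12* at 0.09 farthest to the right.

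*Map1lc3b* had the largest relative difference of the members. It was 1.197-fold higher in the PVC than in the EC relative to the typical gene, which is -0.26 on the log2 scale and the 12.4th percentile of the relative ratios of all genes. It lay just inside the limit and passed it where the median ratio was taken over genes with a mean of at least 10 or over all genes above 0. *Map1lc3a* followed, 1.101-fold higher in the PVC, and then *Gabarapl1*, 1.09-fold higher in the PVC. At a limit of 1.1-fold, *Map1lc3a* and *Map1lc3b* counted as higher in the PVC, as 23.2% of all genes did, while 47.3% of all genes passed that limit in either direction. At the other end, *Atg12* had a relative EC over PVC ratio of 1.06 and *Gabarap* one of 1.06. The ATG8 genes of the members thus lay on both sides of 1.

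The same values can be read as ratios between genes of 1 region, into which no scaling between the tables enters, although they are not independent of the relative ratios above. *Map1lc3b* was 1.81 times the level per kb of *Gabarap* in the EC and 2.29 times in the PVC, so that this ratio was 1.26-fold higher in the PVC. Its ratio to *Map1lc3a* was 1.09-fold higher in the PVC and its ratio to *Gabarapl1* 1.096-fold higher. The ratio of *Sqstm1* to *Map1lc3b* was 1.26 in the EC against 1.04 in the PVC. The ratio of *Gabarapl1* to *Map1lc3a* was 3.34 in the EC against 3.32 in the PVC.

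The remaining 5 members were likewise near the typical gene. *Becn1* had a relative EC over PVC ratio of 1.003, *Atg5* one of 0.994, *Sqstm1* one of 1.01, *Atg7* one of 0.967 and *Ulk1* one of 0.946. On the log2 scale these lay between -0.08 for *Ulk1* and 0.02 for *Sqstm1*. How far they are from each other relative to the spread between mice was not measured.

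A list of 36 other autophagy genes, all found in both tables, placed the members in their pathway. The 35 of them with an exon length had a median level of 511 per kb in the EC against 288 in the PVC, at the 76.1th and 76.2th percentiles of all genes. *Gabarapl2* was the highest of these, and 5 members in the EC and 4 in the PVC were above it. The change in number is due to *Gabarap*, whose order with *Gabarapl2* depends on the exon lengths, so it is not read as a regional difference. Of the 36 genes, 2 were at least 1.2-fold higher in the EC and 2 at least 1.2-fold higher in the PVC, or 5.56% each, against the 13.1% and 12.2% of all genes. Their median relative ratio was 0.971.

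The 4 genes past the limit were a receptor, a protease and genes of the membrane supply. *Optn*, a receptor for ubiquitylated cargo and damaged mitochondria, had a relative EC over PVC ratio of 1.32, with a mean normalized count of 1477 in the EC against 609 in the PVC. *Atg9b*, the minor paralog of the membrane-spanning protein gene *Atg9a*, had a ratio of 1.33 at 339 and 139. *Atg4c*, of the proteases that trim the ATG8 precursors, was 1.38-fold higher in the PVC, with 1805 in the EC and 1362 in the PVC. *Vmp1*, a membrane protein of the endoplasmic reticulum listed under its older symbol *Tmem49*, was 1.28-fold higher in the PVC, at 3049 and 2134. The 4 initiation genes of this list had relative ratios between 0.857 and 1.025, the 6 nucleation genes between 0.878 and 1.03 and the 4 conjugation genes between 0.910 and 1.01, and none of these passed. *Atg4b*, the main protease for the LC3 precursors, had a ratio of 1.01, and the level per kb of *Map1lc3b* was 8.36 times that of *Atg4b* in the EC and 10.1 times in the PVC.

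**Figure D4:**
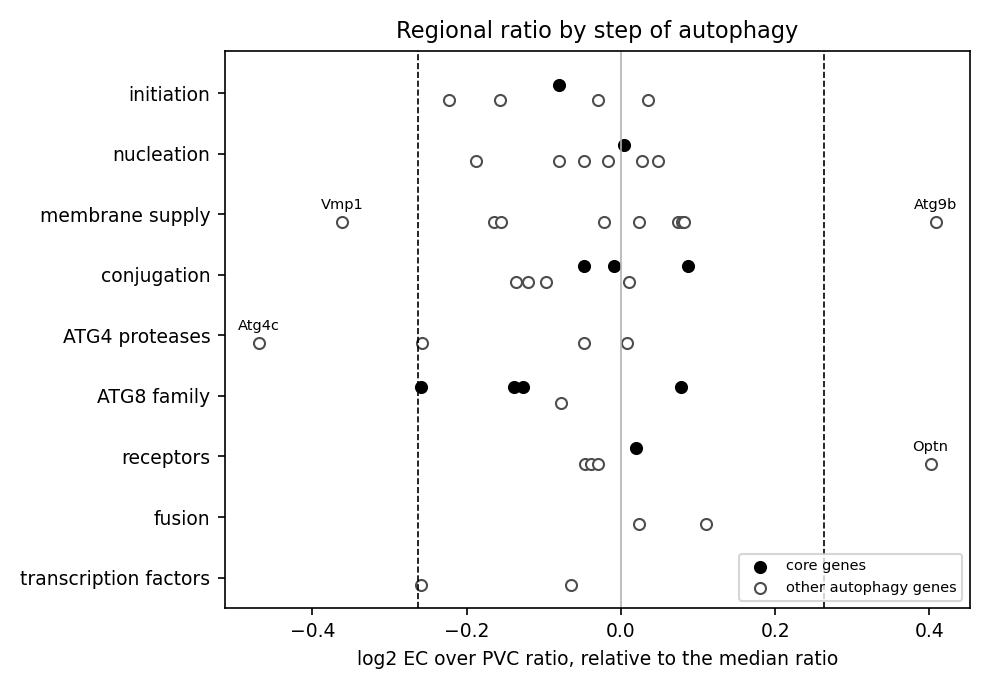
Log2 EC over PVC ratio of mean normalized counts, relative to the median ratio, for the 10 autophagy core genes (filled points) and 36 other autophagy genes (open points), arranged by step, with dashed lines at 1.2-fold. The 4 named open points are those past the lines, *Atg9b* and *Optn* toward the EC and *Atg4c* and *Vmp1* toward the PVC, and no filled point lies past them.

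Several cell type markers differed between the regions by more than any member did. As a check of the tissue label, *Slc17a7* of cortical glutamatergic neurons had a mean normalized count of 77884 in the EC against 38116 in the PVC, while *Alb* of liver was at 0.936 and 0.306. The 3 oligodendrocyte markers had relative EC over PVC ratios from 0.356 to 0.392, and their summed mean normalized counts were 37363 in the EC against 52165 in the PVC. The 3 astrocyte markers had ratios from 1.15 to 1.55. Of the 3 markers listed for glutamatergic neurons, *Tbr1* had 0.657, *Slc17a7* 1.11 and *Snap25*, which other neurons also express, 0.692. The ranges of the other lists were 0.772 to 0.973 for the 3 GABAergic markers, 0.986 to 1.12 for the 3 microglial markers and 1.002 to 1.04 for the 3 endothelial markers. The summed mean normalized counts of the 3 choroid plexus markers were 359 in the EC against 486 in the PVC, with *Ttr* at 155 and 378, *Kl* at 194 and 103, and *Folr1* at 9.89 and 5.00. The relative EC over PVC ratio was 0.224 for *Ttr* and 1.023 for *Kl*. The summed mean normalized counts of the 3 dentate gyrus markers were 770 and 322. *Prox1* was at 410 and 262 (relative ratio 0.851), *C1ql2* at 325 and 50.5, and *Dsp* at 35.7 and 9.69. *C1ql2* and *Dsp* had means below 100 in the PVC, so no relative ratio was taken for them. Unlike *Prox1*, both were higher in the EC by more than the median ratio of 1.83. The 3 markers from outside the brain summed to 12.02 and 5.98. *Map1lc3b*, *Map1lc3a* and *Gabarapl1* lay on the same side of 1 as the oligodendrocyte and GABAergic markers, *Tbr1* and the pan-neuronal *Snap25*, and on the other side from *Slc17a7*, and the part of cell makeup in their ratios was not tested.

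The promoters of the members were searched for the E-box CACGTG, the core of the element through which the lysosomal transcription factor TFEB acts on its targets. Windows from 250 bases before to 50 bases after an annotated start were taken from RefSeq on GRCm38.p6, in which 7 of the 10 members had one. Whether that start is the main start of the gene or lies inside it was not checked. The 6 letters, which read the same on both strands, were found for 2 of these 7 genes, against 7.15% of all 32851 promoters of that length. The matches are shown with the motif in capitals and run 5′ to 3′ on the strand of the gene. The *Atg7* match lies at chr6:114670952-114670981 and starts 132 bases before the annotated start used. The *Atg5* match lies at chr10:44268313-44268342 and starts 14 bases before the one used for *Atg5*. Both are on the plus strand.
Atg7: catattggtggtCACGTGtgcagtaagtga
Atg5: cggagcgcttgcCACGTGgtcttggtgacg

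A match of letters is not evidence of binding, and no match says only that these letters are not in the window.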

How the data were processed

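Poly(A)+ RNA from the EC and PVC was sequenced as single-end reads. Per the paper's methods and the submitters' processing notes, the authors aligned reads to mm9 with TopHat2 2.0.6 and Bowtie2 2.0.2.0, counted them per gene with HTSeq on a modified NCBIM37 annotation and normalized them with DESeq2 1.10.1. The deposited mean normalized count, treated as a signal, is the authors' mean over the 29 libraries of a region. The 5 other columns per table (fold change of genotypes, its standard error, Wald statistic, *p*-value and adjusted *p*-value) are the authors' own comparison and were not used. Hence no test was run, and no values of single mice or depths were analysed. No other columns of per-sample values were present.

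Exon lengths came from GENCODE M1 on NCBIM37, which matched 81.2% of the symbols listed and all 10 members. Percentiles were taken over genes with a length and a value above 0. Regional ratios were divided by the median ratio over genes with means of at least 100 in both regions, and 1.2-fold was the limit. Other symbols were matched through RefSeq synonyms. All members, the partners of members and other autophagy genes past the limit are named. A marker on the fixed list is not reported here. Members and lists were chosen with earlier results of these data known. Python 3.11.15, pandas 2.3.3, numpy 2.4.6, matplotlib 3.10.9 and Biopython 1.88 were used.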

Additional observations from a re-analysis of the deposited data

How the results depend on the processing

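The median percentile of the members by level per kb was 92.8 for EC and 92.2 for PVC tissue, and stayed between 88.5 and 95.9 under the 3 alternatives for length and gene set. The lowest percentile among the members moved more, from 70.8 in the EC and 70.3 in the PVC. It fell to 56.3 and 56.4 over genes of at least 10, and to 58.6 and 58.9 with the coding length. The median log2 ratio between regions, -0.03, stayed between -0.07 and -0.01 under the 4 alternatives for scaling and filter. Each of these 4 shifts every gene by the same amount, at most 0.05 on the log2 scale, so they leave differences among members as they are. The number of members past the limit, 0, became 2 at 1.1-fold, and 1 with a minimum of 10 or with no minimum, which is *Map1lc3b* higher in the PVC. For the 36 other autophagy genes the number, 4, became 11 at 1.1-fold (2 higher in the EC and 9 in the PVC of the 36, against 24.1% and 23.2% of all genes) and 0 at 1.5-fold (4.03% and 4.32% of all genes). It became 6 with a minimum of 10 (2 and 4) and 7 with no minimum (2 and 5). Those changed minimums move every gene toward the PVC, by -0.02 and -0.05 on the log2 scale. The share of all genes past the limit under them was not counted, so these counts are not read as a trait of autophagy genes. Sum scaling and the median ratio of genes of at least 1000 left both numbers at 0 and 4. Leaving out single libraries could not be done with means. No paired analysis was possible because no values of single mice were used.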
